A study of Mus musculus with 16 samples.

Results

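The comparison covers the 8 libraries made from mice exposed to isoamyl acetate, of 16 libraries in the series: 4 titled GFP+ against 4 titled GFP-. They were chosen by their sample titles and paired by replicate number, since both libraries of a number came from the same pool of 3 mice. All 16 libraries came from S100a5-tauGFP mice on C57BL/6, a reporter line in which a GFP fusion marks cells that express S100a5, so every group carries the reporter. The mice were of both sexes and 7 to 12 weeks old. Each spent 40 hours alone in a chamber of clean flowing air, and from hour 26 it received pulses of 10 seconds every 20 minutes. The 12 mice of this comparison received isoamyl acetate, a fruity ester odorant, and the 12 mice behind the other 8 libraries received filtered air. Olfactory mucosa was dissected and dissociated, the cells were sorted by fluorescence, and RNA was measured on Clariom S mouse arrays. The labels do not state the number of reporter alleles, the sex of each pool or the sort gates.

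An olfactory sensory neuron expresses a single odorant receptor gene. Odor binding activates the G protein encoded by Gnal, the adenylyl cyclase Adcy3 and a cyclic nucleotide-gated channel, and calcium then opens the chloride channel Ano2. S100a5, a calcium-binding protein gene, is expressed more strongly in stimulated olfactory neurons, so in this reporter a bright cell is expected to be a neuron with a recent history of activity. The assay compares receptor transcripts between bright and dim cells to find receptors of active neurons. The mucosa also holds immature neurons, basal progenitors, sustentacular and gland cells, microvillar cells and blood cells.

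The deposited values are log2 signals, where 1 unit stands for a 2-fold change. Every difference is titled GFP+ minus titled GFP-, as the mean over 4 pools with its standard error (SE) from limma, and values of single libraries are given in the order of pools 1 to 4. A gene is said to rise or fall where limma's adjusted p (Benjamini-Hochberg over 22206 probe sets) is below 0.05. The pools are separate groups of animals. In bulk libraries of this kind, fewer cells of a type and less RNA per cell cannot be told apart.

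S100a5 checks the labels first. Its log2 signal was 15.46, 15.94, 15.23 and 15.35 in the libraries titled GFP+ and 16.83, 16.95, 16.62 and 16.58 in those titled GFP-. All 4 titled GFP- libraries lay above all 4 titled GFP+ libraries. S100a5 therefore fell by 1.25 on the log2 scale in titled GFP+ (SE 0.13, adjusted p = 5.93e-05), whereas a sort on the reporter would be expected to leave more S100a5 among GFP+ cells. For all 8 libraries the sign of GFP in the title is the reverse of the one under cell type. The groups are therefore called by their titles, and no direction below is read as a direction of GFP brightness. The 250 bases before the RefSeq start of S100a5 (GRCm38.p6, chr3:90608272-90608521, plus strand) are shown because the reporter marks this gene's activity. They held none of the 5 motifs searched: CCCNNGGG, the core bound by Ebf factors; TAATTA, a homeodomain core; TGACGTCA, the cyclic AMP response element; its first 5 letters TGACG, which every full element also contains; and the CArG box of serum response factor. Both strands were searched here and below, and capitals mark a match.
S100a5: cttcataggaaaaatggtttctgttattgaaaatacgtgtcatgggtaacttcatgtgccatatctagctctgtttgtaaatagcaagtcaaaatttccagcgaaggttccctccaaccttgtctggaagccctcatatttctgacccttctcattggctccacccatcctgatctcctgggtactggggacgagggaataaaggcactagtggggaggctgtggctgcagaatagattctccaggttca

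Over all probe sets, 2640 were higher in titled GFP+ (11.9% of those tested) and 3147 were lower (14.2%). The rises were larger: 562 rose by over 3 on the log2 scale and 101 fell by over 3, and beyond 5 the counts were 182 and 9. Across all probe sets the median difference stood at -0.14. The array medians were 6.80 to 6.90 in titled GFP+ and 6.42 to 6.52 in titled GFP-, so small differences depend on how arrays are scaled. Centring each array on its median moved the median difference to -0.50 and gave 1963 rises and 14643 falls, so the share of calls that were rises went from 45.6% to 11.8%. Centring on mature neuron markers moved it to 0.12 with 3971 rises and 879 falls (81.9% rises), and centring on negative control probes moved it to -0.05 with 2741 and 1301 (67.8%). Without pool 1 the number of falls was 1719 and without pool 2 it was 1926. The first principal component of the 8 libraries held 75.7% of the variance.

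Genes known to follow activity in olfactory neurons were lower in the libraries titled GFP+. Of 9 measured, 7 fell and 0 rose, beside 14.2% and 11.9% of all probe sets, with a median difference of -1.10. S100a5, the reporter's own gene, is among the 9 and the 7 and is no separate evidence. The list was written with earlier results of these data known. Pcp4l1, which encodes a small calmodulin-binding motif protein, gave 13.36, 14.63, 13.14 and 13.81 in titled GFP+ and 15.78, 15.81, 15.13 and 15.84 in titled GFP-. The groups did not overlap, and the fall was the largest of the list, at -1.90 (SE 0.23, adjusted p = 0.000163). Pcdh10, a protocadherin of axon sorting, gave 10.20, 10.98, 9.91 and 10.65 against 12.14, 12.57, 11.61 and 11.91, again with no overlap (-1.62, SE 0.18, adjusted p = 0.000123). Lrrc3b, a leucine-rich repeat membrane protein gene, gave 12.42, 14.30, 12.68 and 12.40 against 14.22, 15.81, 14.02 and 13.86. Here the groups overlapped, because pool 2 was high in both sorts. Within each pool Lrrc3b was lower in titled GFP+, by -1.53 on average (SE 0.16, adjusted p = 6.33e-05).

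Kirrel2, an adhesion molecule that sorts axons of like receptor, showed the same high pool 2. Its values were 13.95, 15.997, 13.58 and 13.70 in titled GFP+ and 15.39, 16.77, 14.77 and 14.68 in titled GFP- (-1.10, SE 0.18, adjusted p = 0.00123). The other 4 genes of the list were chosen for naming after their values were seen. Plcxd3 fell by 0.87 (adjusted p = 0.0161), a call lost without pool 1 or without pool 2, and Sema7a, a semaphorin of synapse formation in the bulb, by 0.83 (adjusted p = 0.000557). In pool 3 Plcxd3 was only slightly lower in titled GFP+, at 7.76 against 7.86. Rasgrp4 (-0.52, adjusted p = 0.0682) and Camk2n1 (-0.47, adjusted p = 0.0825) did not pass the test. Camk2n1, an inhibitor of calcium/calmodulin-dependent kinase, was higher in titled GFP+ in pool 3 (8.85 against 8.71) and lower in the other 3 pools.

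**Figure D1:**
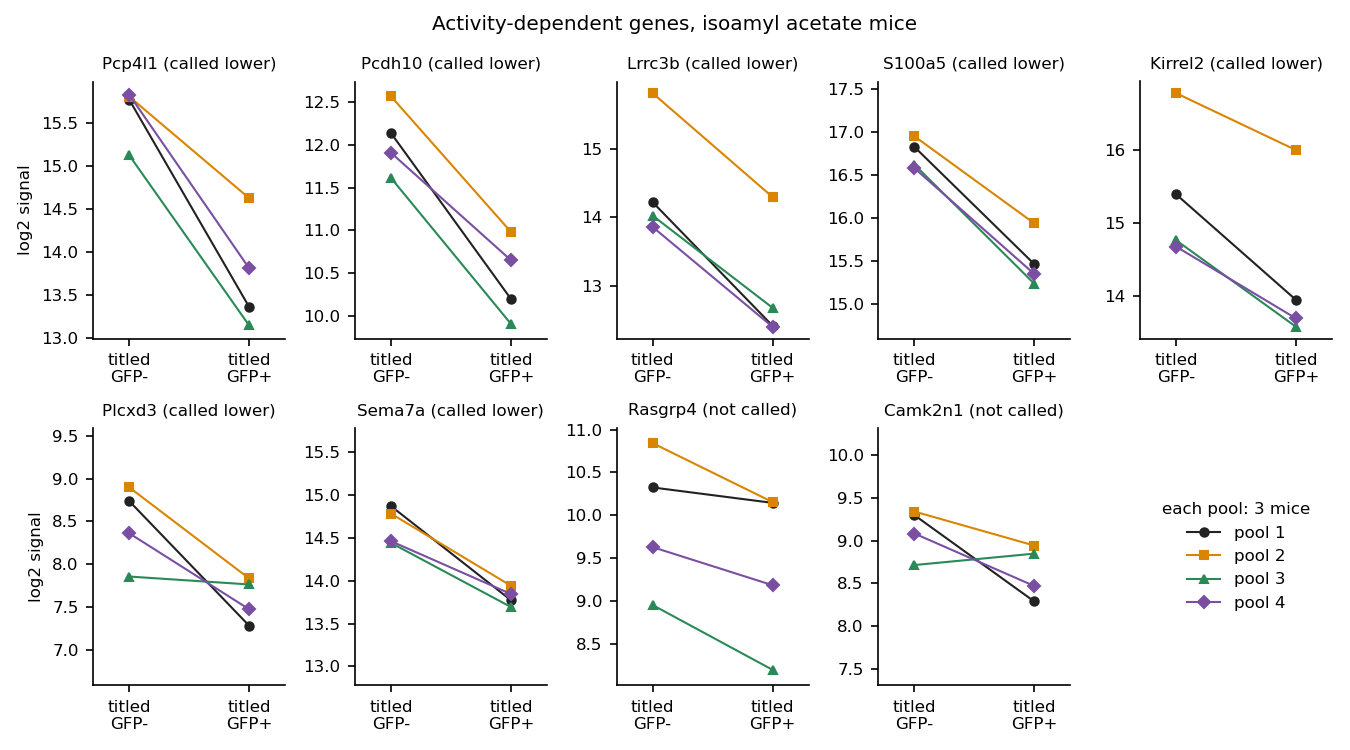
Log2 signal of the 9 activity-dependent genes in the 8 isoamyl acetate libraries, with titled GFP- at the left and titled GFP+ at the right of each panel and a line joining the libraries of a pool of 3 mice. The lines of the 7 called genes slope down in all 4 pools, while Camk2n1 goes up in pool 3, and panels have their own axis limits with at least 3 log2 units shown.

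Of 16 measured genes of the odor transduction cascade 1 rose and 4 fell, beside 11.9% and 14.2% of all probe sets, and the median difference was -0.24, beside -0.14. Omp, the defining marker of mature olfactory neurons, was chosen after its values were seen and gave 17.99, 18.35, 18.35 and 18.20 in titled GFP+ and 18.42, 18.49, 18.39 and 18.42 in titled GFP- (-0.21, adjusted p = 0.177). The groups overlapped for Omp, and its signal was high in every library of both sorts. Pde1c, the ciliary phosphodiesterase that breaks down cyclic AMP, gave 14.81, 15.06, 14.83 and 14.94 against 15.90, 15.75, 15.58 and 15.76, with no overlap (-0.84, SE 0.11, adjusted p = 0.000364). Slc8a1, a sodium-calcium exchanger, fell by 0.95 (adjusted p = 0.00183), Ano2 by 0.51 (adjusted p = 0.00374) and Slc24a4, the exchanger that clears calcium from cilia, by 0.49 (adjusted p = 0.0310), the last a call lost without pool 1, 2 or 4. Grk3, a receptor kinase, rose by 1.11 (adjusted p = 0.00754) but lay at or under the negative controls in titled GFP-, which leaves a bound of at least 1.07-fold. It was above them in only 2 of 4 titled GFP+ libraries. The count depended on the scaling and the test: 13 fell under median centring (median -0.60) and 12 with an intensity trend. Centring on mature neuron markers left 2 falls and 2 rises and turned the median to 0.02. Pde1c, Ano2 and Slc24a4 are themselves among those markers, so the result of that scaling was partly fixed in advance.

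Of 22 mature neuron markers measured, 1 rose and 6 fell, beside 11.9% and 14.2% of all probe sets, with a median of -0.26. The falls of Pde1c, Ano2 and Slc24a4 are counted in the cascade as well, and that of Rtp2 in the transport list below, so the lists are not separate evidence. Without pool 1 or without pool 2 there were 3 falls. Under median centring 20 fell (median -0.63) and with an intensity trend 16, while centring on negative controls left 1. Centring on mature neuron markers also left 1. That scaling sets the mean of these same markers equal in all libraries, so it cannot test their shift. Nrn1, neuritin, rose by 0.46 (adjusted p = 0.0195), a call lost without pool 1, 3 or 4. The log2 of the summed signals of the 22 markers was 21.25 to 21.65 in titled GFP+ and 21.68 to 21.81 in titled GFP-. The brightest markers weigh most in such a sum. Each of the 22 was above the negative control median in at least 1 library of each sort. Of 16 genes of receptor transport and choice, Rtp2, a receptor transport protein, fell by 0.46 (adjusted p = 0.0121; not called without pool 1 or without pool 2), and Lbr, the lamin B receptor whose loss from the nuclear envelope accompanies receptor choice, rose. Lbr gave 12.00, 11.69, 10.54 and 11.53 in titled GFP+ and 10.17, 9.75, 9.65 and 9.71 in titled GFP-. The groups did not overlap (1.62, SE 0.18, adjusted p = 0.000117).

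Axon, synapse, ion channel and cilium genes held more falls than rises, as did all probe sets (14.2% against 11.9%). Of 27 axon guidance and adhesion genes 11 fell and 2 rose, of 18 synaptic vesicle genes 8 fell and 0 rose, of 17 ion channel genes 4 fell and 1 rose, and of 22 primary cilium genes 7 fell and 0 rose. Their medians were -0.20, -0.35, -0.24 and -0.30. Pcdh10 and Kirrel2, given above as activity-dependent genes, are among the 11 axon guidance and adhesion falls. Syngr1, synaptogyrin, gave 12.11, 12.67, 12.79 and 12.87 in titled GFP+ and 13.93, 13.99, 13.95 and 13.82 in titled GFP-, far apart in every pool (-1.32, SE 0.14, adjusted p = 9.71e-05). Kcnmb3, an accessory subunit of calcium-activated potassium channels, fell by 1.44 (adjusted p = 4.71e-05). Epha5, an ephrin receptor, fell by 1.09 (adjusted p = 0.000512) and Sema3e, a secreted semaphorin, by 1.02 (adjusted p = 0.000120). Sema3a rose by 0.76 (adjusted p = 0.0291; a call lost without pool 2, 3 or 4). The adhesion molecule gene Nrcam was at or under the negative controls in titled GFP- and rose at least 1.21-fold (adjusted p = 0.0330, lost without pool 1, 2 or 4). The falls among cilium genes were 0.53 at most, for Bbs5, a subunit of the BBSome, whose call was lost without pool 1, 2 or 4. Without pool 1 the synaptic and cilium falls numbered 3 and 3, without pool 2 they numbered 3 and 4, and without pool 4 the cilium falls numbered 3. With centring on mature neuron markers the axon guidance median was 0.06, the ion channel median was 0.02 and 0 cilium genes were called. Under median centring 19 axon, 16 synaptic, 16 ion channel and 22 cilium genes fell, and with an intensity trend 13 cilium genes fell. Of 8 markers of mucosal zones, Nrp2 fell (-0.46, adjusted p = 0.0488), a call lost without any 1 of the 4 pools.

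Odorant receptors divided between the sorts in both directions. Of 1091 measured, 262 rose (24.0%) and 508 fell (46.6%), beside 11.9% and 14.2% over all probe sets, and 321 did not pass. The median was -0.56. The 4 and 4 libraries did not overlap for 220 higher receptors and 422 lower ones, beside 10.5% and 11.3% of all probe sets. Rises reached further than falls: 45 receptors rose by over 5 and 8 fell by over 5. The median rise was 2.94 and the median fall -1.91. Of the 262 that rose, 46 were at or under the negative controls in all 4 titled GFP- libraries, and 38 of the 508 that fell were so in titled GFP+. Near-identical receptor copies can share probes, so single receptors of a recent duplication are uncertain.

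Olfr1507, the receptor known as MOR28, had the largest fitted rise of the receptors. It gave 14.16, 12.90, 15.12 and 15.65 in titled GFP+ and 5.93, 4.97, 6.18 and 7.06 in titled GFP-. Every titled GFP+ library was above 12 and every titled GFP- library below 8 (8.42, SE 0.18, adjusted p = 1.14e-08). Olfr99 gave 14.44, 14.68, 14.23 and 13.97 against 5.25, 6.21, 5.54 and 6.83, an equally wide gap (8.37, SE 0.32). Olfr1213 gave 13.87, 13.58, 14.59 and 14.73 against 5.89, 7.12, 3.83 and 6.79, with a wider spread in titled GFP- (8.29, SE 0.85). Olfr393 gave 13.54, 15.16, 14.89 and 15.13 against 6.20, 6.52, 6.43 and 6.52 (8.26, SE 0.27). Olfr677 was at or under the negative controls in titled GFP- (4.50, 4.59, 4.24 and 3.97) and bright in titled GFP+ (11.64, 12.77, 12.48 and 12.36). Its rise was at least 116-fold. Of the other 10 of the 15 receptors named as rises with no overlap, Olfr1297, Olfr1447, Olfr1406, Olfr1140, Olfr390, Olfr77, Olfr1176, Olfr1322 and Olfr728 rose by 8.08 to 7.30. Olfr1446 was at or under the negative controls in titled GFP- and rose at least 90.7-fold, so it has no exact place among them. Olfr1446 and Olfr1447 (8.06) lie in 1 cluster on chromosome 19.

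Olfr309 fell most. It gave 8.77, 7.85, 9.26 and 10.62 in titled GFP+ and 15.29, 15.15, 15.33 and 15.59 in titled GFP-. Its titled GFP- libraries lay close together, and its titled GFP+ libraries were more spread (-6.22, SE 0.30, adjusted p = 3.26e-07). Olfr372 gave 3.76, 4.29, 5.22 and 5.76 against 10.37, 9.83, 11.43 and 10.94 (-5.89, SE 0.25). Olfr536 gave 8.23, 7.07, 8.68 and 10.14 against 14.21, 13.38, 14.68 and 15.13 (-5.82, SE 0.21). Olfr613, a class I receptor, was at or under the negative controls in titled GFP+, at 3.72 to 4.73, and read 9.09 to 11.45 in titled GFP-, at least 25.8-fold apart. The remaining named falls were Olfr110, Olfr101, Olfr533, Olfr494, Olfr491, Olfr1480, Olfr522, Olfr211, Olfr1037 and Olfr1093, from -5.27 to -4.18, and Olfr481, which was at or under the negative controls in titled GFP+ and at least 17.1-fold higher in titled GFP-. Olfr1264, chosen after its values were seen, had the highest receptor signal in titled GFP-, at 17.33, 17.38, 17.70 and 17.40. It was also high in titled GFP+, at 14.71, 14.65, 15.94 and 16.01, and fell by 2.12 (adjusted p = 0.000156). Olfr1197, likewise chosen after its values were seen, had the highest receptor mean in titled GFP+ (15.97) and was not called (0.31, adjusted p = 0.211).

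**Figure D2:**
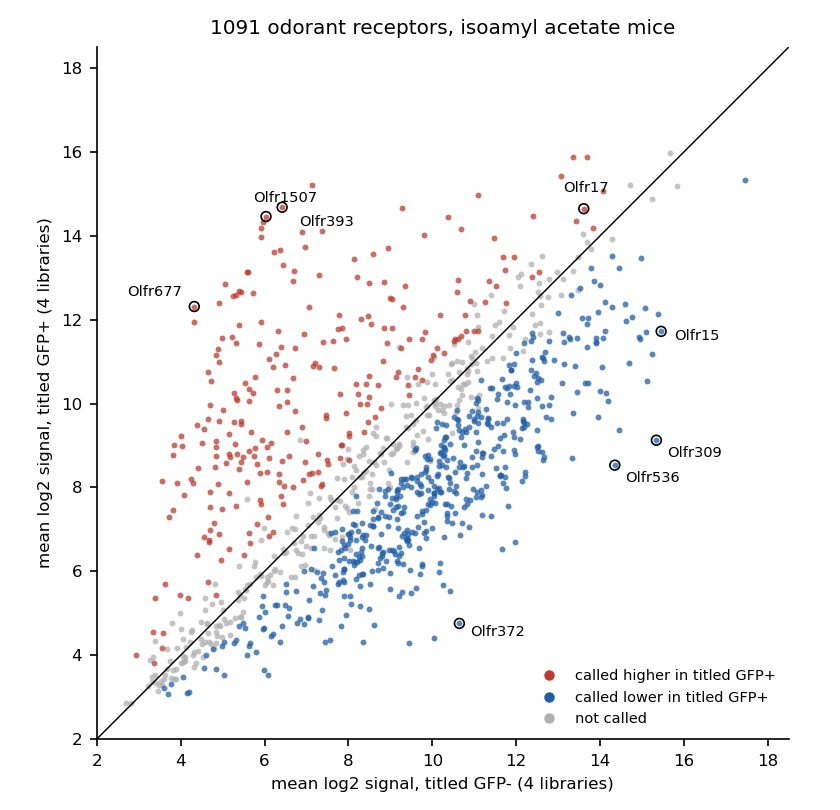
Mean log2 signal of each of 1091 odorant receptors in the 4 isoamyl acetate libraries titled GFP- (x axis) and titled GFP+ (y axis), with the line of equal signal and calls by limma at an adjusted p below 0.05. The 262 called rises include receptors such as Olfr1507 and Olfr677 near the floor of the x axis, and the 508 called falls run in a broad band below the line.

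Receptor letters before the gene start are shown for receptors at both ends of this range. RefSeq's start of a receptor is often its coding start: 685 of 944 receptor entries open with ATG and were not used. Of the rest, receptors are printed whose first 50 transcribed bases hold no ATG: Olfr1406 (GRCm38.p6, chr1:173184505-173184754, minus strand) and Olfr629 (chr7:103741323-103741572, minus strand), which rose, and Olfr1093 (chr2:86782295-86782544, plus strand) and Olfr124 (chr17:37804819-37805068, plus strand), which fell. Olfr1406 was far higher in titled GFP+ (12.58, 12.75, 13.47 and 12.57 against 5.10, 5.63, 5.397 and 4.07), and Olfr629 rose at least 11.8-fold. Olfr1093 was far lower (5.56, 5.91, 5.85 and 6.59 against 10.37, 10.14, 10.06 and 10.06).
Olfr1406: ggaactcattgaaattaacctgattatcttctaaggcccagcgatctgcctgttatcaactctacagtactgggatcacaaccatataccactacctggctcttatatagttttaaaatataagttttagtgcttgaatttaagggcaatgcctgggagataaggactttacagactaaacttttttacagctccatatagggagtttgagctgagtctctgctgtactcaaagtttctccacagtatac
Olfr629: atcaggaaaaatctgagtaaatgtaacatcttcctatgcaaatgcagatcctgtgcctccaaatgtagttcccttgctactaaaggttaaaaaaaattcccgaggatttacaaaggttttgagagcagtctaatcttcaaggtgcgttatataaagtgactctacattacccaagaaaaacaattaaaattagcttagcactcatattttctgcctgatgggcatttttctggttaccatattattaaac
Olfr1093: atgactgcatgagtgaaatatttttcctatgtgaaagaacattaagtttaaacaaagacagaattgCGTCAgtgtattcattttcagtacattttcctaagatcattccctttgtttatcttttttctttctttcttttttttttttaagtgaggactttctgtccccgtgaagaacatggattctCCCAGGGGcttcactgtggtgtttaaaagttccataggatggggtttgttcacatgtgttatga
Olfr124: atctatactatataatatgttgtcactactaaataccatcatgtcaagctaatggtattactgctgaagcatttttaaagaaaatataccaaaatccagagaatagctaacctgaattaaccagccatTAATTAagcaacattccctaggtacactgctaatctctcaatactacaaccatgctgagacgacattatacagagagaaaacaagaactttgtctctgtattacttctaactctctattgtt
Olfr1093 held 1 CCCNNGGG and 1 TGACG, Olfr124 held 1 TAATTA, and the others held no match. TAATTA stood before 16 of 65 receptors that rose (24.6%), 17 of 117 that fell (14.5%) and 11 of 70 not called (15.7%), beside 5.32% of 26340 genes. CCCNNGGG stood before 4, 9 and 4 of the same receptors (6.15%, 7.69% and 5.71%), beside 13.8% of all genes. Among 12 transduction genes with an entry it stood before 6 (50%).

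Receptors of 1 genomic cluster often had the same direction, which is given as a description. By RefSeq gene order, with at most 5 other protein-coding genes between receptors, 966 receptors lay in 23 clusters of at least 10. Of 532 neighbouring pairs in which both receptors were called, 357 were called the same way (67.1%). Only 34.0% of called receptors were rises, so many pairs would share a direction without any tie between neighbours. The share expected of such pairs was not computed. Of all receptors 46.6% fell and 24.0% rose. In the cluster from Olfr522 to Olfr541 on chromosome 7, 15 of 19 fell and 0 rose, with a median of -2.45. In the chromosome 4 cluster from Olfr62 to Olfr1328, 10 of 13 fell and 0 rose. From Olfr467 to Olfr519 on chromosome 7, 25 of 42 fell and 3 rose, and from Olfr160 to Olfr986 on chromosome 9, 61 of 96 fell and 18 rose. The chromosome 14 cluster from Olfr722 to Olfr749 had 17 falls and 4 rises of 27, and that from Olfr172 to Olfr209 on chromosome 16 had 17 and 3 of 25.

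Some other clusters held more rises than falls. From Olfr310 to Olfr292 on chromosome 7, 10 of 15 rose and 1 fell, with a median of 1.55. The single fall was Olfr309, the largest fitted fall of all receptors. From Olfr376 to Olfr412 on chromosome 11, 18 of 30 rose and 6 fell, among them the rises of Olfr393 and Olfr390. The chromosome 10 cluster from Olfr9 to Olfr827 was mixed, with 21 rises and 15 falls of 56. The largest cluster, from Olfr987 to Olfr1274 on chromosome 2, instead held more falls, with 49 rises and 110 falls of 221. Its median was -0.74, and its counts stand beside 24.0% rises and 46.6% falls of all receptors. Cluster mates are related in sequence, so neighbours are not independent.

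**Figure D3:**
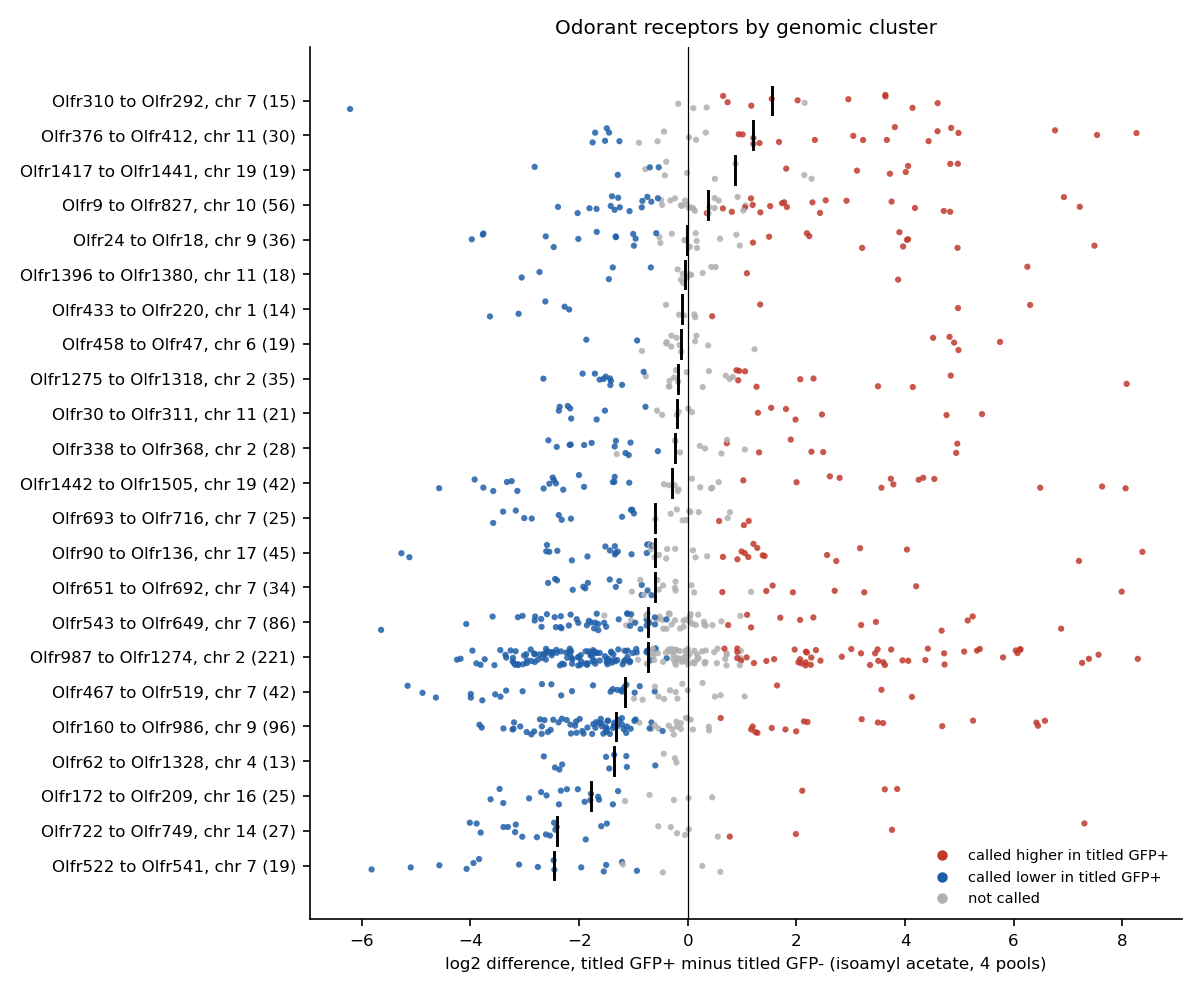
Sort difference (log2, titled GFP+ minus titled GFP-) of odorant receptors in the 23 clusters of at least 10 measured receptors, 1 row a cluster with its receptor number in brackets, ordered by the black bar at its median. Medians run from -2.45 for the cluster from Olfr522 to Olfr541 up to 1.55 for that from Olfr310 to Olfr292, where Olfr309 stands alone at the left.

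Rises and falls occurred at all signal levels. Of all receptors 24.0% rose and 46.6% fell, beside 11.9% and 14.2% of all probe sets. Of the 273 receptors with the lowest mean signal, 61 rose and 85 fell, and of the 273 with the highest, 58 rose and 138 fell. Class I receptors, the older fish-like class, had 18 rises and 51 falls among 111, beside the same 24.0% and 46.6% of all receptors. Their median was -0.71, beside -0.56 of all receptors. Olfr677 and Olfr629 led their rises, and Olfr613 and Olfr593 (-4.08) led their falls.

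Among 11 receptors known from gene targeting or ligand studies, 5 rose, 3 fell and 3 did not pass. Over all odorant receptors 24.0% rose and 46.6% fell, and over all probe sets 11.9% and 14.2%. Olfr1440 rose by 4.01 (adjusted p = 6.48e-06). Olfr16, known as MOR23, gave 11.69, 11.32, 12.33 and 11.84 in titled GFP+ and 9.74, 10.59, 7.74 and 8.09 in titled GFP-, with the sorts closest in pool 2 (2.75, SE 0.68, adjusted p = 0.0149), and its call was lost without pool 3 or without pool 4. Olfr545 rose by 1.17 (adjusted p = 0.00168) and Olfr17, known as P2, by 1.03 (adjusted p = 0.00835). Olfr160, known as M72, gave 6.40, 6.28, 8.001 and 8.71 against 10.93, 10.54, 11.64 and 11.62, apart in all pools (-3.83, SE 0.26, adjusted p = 3.06e-06). Olfr15 fell by 3.73 (adjusted p = 1.06e-06) and Olfr124 by 2.59 (adjusted p = 7.42e-06). Olfr2, the I7 receptor, gave 0.78 (adjusted p = 0.147), the eugenol receptor Olfr73 gave 0.33 (adjusted p = 0.0872) and Olfr558 gave -0.74 (adjusted p = 0.0790).

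Trace amine-associated receptors, which detect volatile amines, were also divided. Of 15 measured, 5 rose and 7 fell, beside 24.0% and 46.6% of odorant receptors and 11.9% and 14.2% of all probe sets. Taar2 gave 10.09, 9.87, 10.79 and 9.84 in titled GFP+ and 4.64, 6.06, 6.87 and 5.66 in titled GFP- (4.34, SE 0.38, adjusted p = 1.86e-05). Taar4 gave 5.82, 5.33, 6.85 and 7.47 against 9.42, 9.31, 10.63 and 10.12 (-3.50, SE 0.27, adjusted p = 8.41e-06). Neither overlapped between the sorts. Taar9 fell by 3.31, Taar3 by 2.21 and Taar7b by 1.45, while Taar7d rose by 1.54, Taar7f by 1.48 and Taar6 by 1.45, the last a call lost without pool 1, 3 or 4. The Taar7 genes are close copies, so their split is uncertain. Of 319 vomeronasal receptors, 288 were at or under the negative controls in both sorts. There were 35 falls and 1 rise, all under 1 log2 unit, beside 14.2% and 11.9% of all probe sets. Median centring gave 229 falls and 0 rises, and centring on negative controls left 7 falls and 2 rises. Their median of -0.24 turned to 0.02 with centring on mature neuron markers, where 5 rose and 1 fell, and without pool 1, 2 or 4 there were 21, 16 and 15 falls.

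Immature neuron, progenitor and division genes were higher in titled GFP+, beside 11.9% rises and 14.2% falls over all probe sets. Of 21 immature neuron markers 12 rose and 0 fell (median 1.89), of 10 globose progenitor genes 9 rose (median 0.91), and of 21 cell cycle genes 19 rose (median 1.98). Gap43, a growth cone protein and the defining immature marker, was chosen after its values were seen and gave 10.44, 10.45, 10.56 and 9.58 in titled GFP+ and 7.84, 7.53, 7.92 and 8.19 in titled GFP- (2.39, SE 0.23, adjusted p = 3.35e-05). Gng8, the G protein subunit of immature neurons, gave 9.83, 10.87, 11.02 and 10.20 against 6.05, 5.62, 6.65 and 5.93 (4.42, SE 0.28, adjusted p = 2.06e-06). Nhlh1, a transcription factor of newborn neurons, gave 7.61, 10.62, 9.70 and 8.61 against 5.13, 5.91, 4.75 and 4.55. Pools 2 and 3 were highest for Nhlh1 in titled GFP+, and no library overlapped (4.05, SE 0.38).

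The largest rises of the immature list were Cd24a, a surface glycoprotein of newborn neurons and of leukocytes (at least 71.2-fold), and the chemokine receptor Cxcr4 (6.04, adjusted p = 3.83e-06). Blood cells express both. Kit, a progenitor receptor kinase also present on mast cells, rose at least 10.1-fold, Sox2 rose by 1.67 (adjusted p = 0.000130) and Pax6 by 1.24 (adjusted p = 0.000681). Mki67, a proliferation marker, gave 11.11, 11.23, 10.18 and 10.27 in titled GFP+ and 4.73, 5.28, 5.97 and 6.21 in titled GFP-. The groups were far apart in all 4 pools (5.15, SE 0.46, adjusted p = 2.24e-05). Ube2c, a ubiquitin enzyme of mitosis, rose at least 13.5-fold. Of 10 horizontal basal cell markers 2 rose, beside 11.9% of all probe sets: Cd44 (3.71) and Icam1, both of which leukocytes also express. Icam1 was at or under the negative controls in both sorts. The defining marker Krt5, chosen after its values were seen, was at or under the negative controls in both sorts. Without pool 1 the Icam1 call was lost.

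Supporting and microvillar cell genes rose as well. Of 16 sustentacular markers 14 rose and 0 fell, beside 11.9% and 14.2% of all probe sets, with a median of 2.56. Cyp2g1, a cytochrome of the olfactory epithelium chosen after its values were seen, gave 16.40, 15.79, 14.90 and 15.48 in titled GFP+ and 13.92, 13.17, 13.15 and 13.67 in titled GFP- (2.16, SE 0.17, adjusted p = 7.48e-06). It was thus well above the negative controls in both sorts. Cdh1, E-cadherin, gave 12.82, 12.23, 11.31 and 11.57 against 7.19, 7.02, 6.99 and 6.69 (5.01, SE 0.18, adjusted p = 7.53e-08). Krt18, a keratin, rose by 4.12, Ezr, ezrin of microvilli, by 3.07, and Slc2a3, a glucose transporter of neurons and leukocytes as well, at least 20.7-fold. The log2 of the summed signals of the 16 markers was 15.81 to 17.52 in titled GFP+ and 14.00 to 14.80 in titled GFP-.

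Of 13 Bowman's gland markers 7 rose and 0 fell, beside 11.9% and 14.2% of all probe sets. Ltf and Lyz2, which neutrophils and macrophages also carry, led the rises. Sox9, a transcription factor of gland and supporting cells, rose by 4.52 (SE 0.17, adjusted p = 9.34e-08). Of 15 tuft-like microvillar markers 13 rose, led by Alox5ap (5.80) and Alox5, leukotriene genes that leukocytes also express. Trpm5, the taste-type channel of these cells, gave 10.69, 9.56, 8.29 and 8.03 in titled GFP+ and 5.42, 6.48, 4.82 and 5.16 in titled GFP-. Pools 1 and 2 were higher than pools 3 and 4 in titled GFP+, and no libraries overlapped (3.67, SE 0.37). Of 10 ionocyte-like markers 9 rose (median 3.15). Foxi1, their defining transcription factor, gave 10.83, 9.38, 10.27 and 10.57 against 6.01, 6.08, 6.83 and 6.12 (4.00, SE 0.39), and Cftr, the chloride channel, rose by 3.83 (SE 0.42, adjusted p = 0.000102). Of 11 respiratory epithelium markers 4 rose and 4 fell. The secretory genes Scgb1c1 (4.29) and Cyp2f2 (2.26) were among the rises, and the motile cilium genes Tekt1 (-0.74) and Rsph1 (-0.62) among the falls.

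Neutrophil genes had the largest median difference of the lists described here. All 20 measured rose, with a median of 7.38 and no overlap in any of them, beside 10.5% of all probe sets. S100a8, a calprotectin subunit, gave 16.58, 15.88, 14.85 and 16.24 in titled GFP+ and 7.03, 5.38, 6.89 and 7.66 in titled GFP-. Lcn2, lipocalin of specific granules, gave 17.92, 17.72, 17.11 and 17.65 against 8.07, 6.92, 7.87 and 9.19. Its fitted rise was the largest of the genes named here (9.59, SE 0.38, adjusted p = 1.09e-07). Retnlg, resistin-like gamma, gave 17.31, 16.23, 15.65 and 16.80 against 7.03, 5.78, 7.11 and 8.42 (9.41, SE 0.36). In titled GFP+ pool 3 was the lowest for all 3 genes. Mmp8, the neutrophil collagenase, rose at least 334-fold, Ltf, lactoferrin, at least 302-fold and Mmp9, gelatinase, at least 196-fold.

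The 12 rises outside the receptors with the largest fitted differences were mostly genes known from neutrophils and monocytes. Lcn2, Retnlg, S100a8, S100a9, Ly6c2, Ngp and Chil3 rose by 9.59 to 8.63. Mmp8, Ltf and Mmp9, given above as bounds, Ly6c1 (at least 324-fold) and Hp (at least 246-fold) were at or under the negative controls in titled GFP-, so their order among the 12 was not measured. Ly6c1 and Ly6c2 are near copies and uncertain as single genes. The log2 of the summed signals of the 20 neutrophil markers was 18.81 to 20.01 in titled GFP+ and 10.24 to 11.75 in titled GFP-. In titled GFP- 9 of the 20 were at or under the negative controls, among them Camp, Ltf, Mmp8 and Mmp9. These values stood beside the rises of the other lists, and their part in those was not tested.

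Other blood cell genes rose too, beside 11.9% rises and 14.2% falls over all probe sets. Of 19 macrophage markers, several of them shared with neutrophils, 14 rose and 0 fell (median 3.55). The log2 of their summed signals was 16.16 to 17.80 in titled GFP+ and 10.31 to 11.48 in titled GFP-. Spi1, the myeloid transcription factor, gave 16.34, 15.60, 14.70 and 16.01 in titled GFP+ and 8.69, 7.32, 8.29 and 9.13 in titled GFP- (7.30, SE 0.37), and the integrin Itgam rose at least 127-fold. Of 8 MHC class II genes 6 rose, with H2-Ab1 at 5.42 and H2-Aa at 5.09. Of 15 T and NK cell genes 9 rose, with Il7r, the interleukin-7 receptor, at least 10.5-fold and Cd3e, of the T cell receptor complex, at least 3.31-fold higher. Of 14 B and plasma cell genes 6 rose, and without pool 1 or without pool 2 there were 3. Jchain, the joining chain of antibodies, rose at least 18.7-fold. Of 8 erythroid genes 7 rose: Slc4a1, the anion exchanger of red cells, gave 11.14, 12.23, 11.54 and 10.56 against 8.55, 8.78, 8.91 and 8.65 (2.64, SE 0.23, adjusted p = 1.80e-05).

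Vessel, stromal and glial markers were mostly dim. Of 9 endothelial markers 6 were at or under the negative controls in both sorts. Pecam1 rose at least 1.08-fold, Tek was called higher while at or under the negative controls in both sorts, and Vwf fell (-0.51). All 3 calls were lost without pool 1, and those of Pecam1 and Vwf also without pool 2 or pool 3. Of 9 fibroblast markers 5 were dim in both sorts. Fn1, fibronectin, which macrophages also make, rose at least 114-fold, and Dcn, decorin, rose by 1.23 (adjusted p = 0.00959). Of 10 ensheathing glia markers 5 were dim in both sorts and 3 rose, beside 11.9% of all probe sets. Apoe rose by 2.13, Sox10 rose at least 1.42-fold, a call lost without pool 1, and Erbb3 was above the negative controls in only 2 of 4 titled GFP+ libraries and in 0 of 4 titled GFP-.

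**Figure D4:**
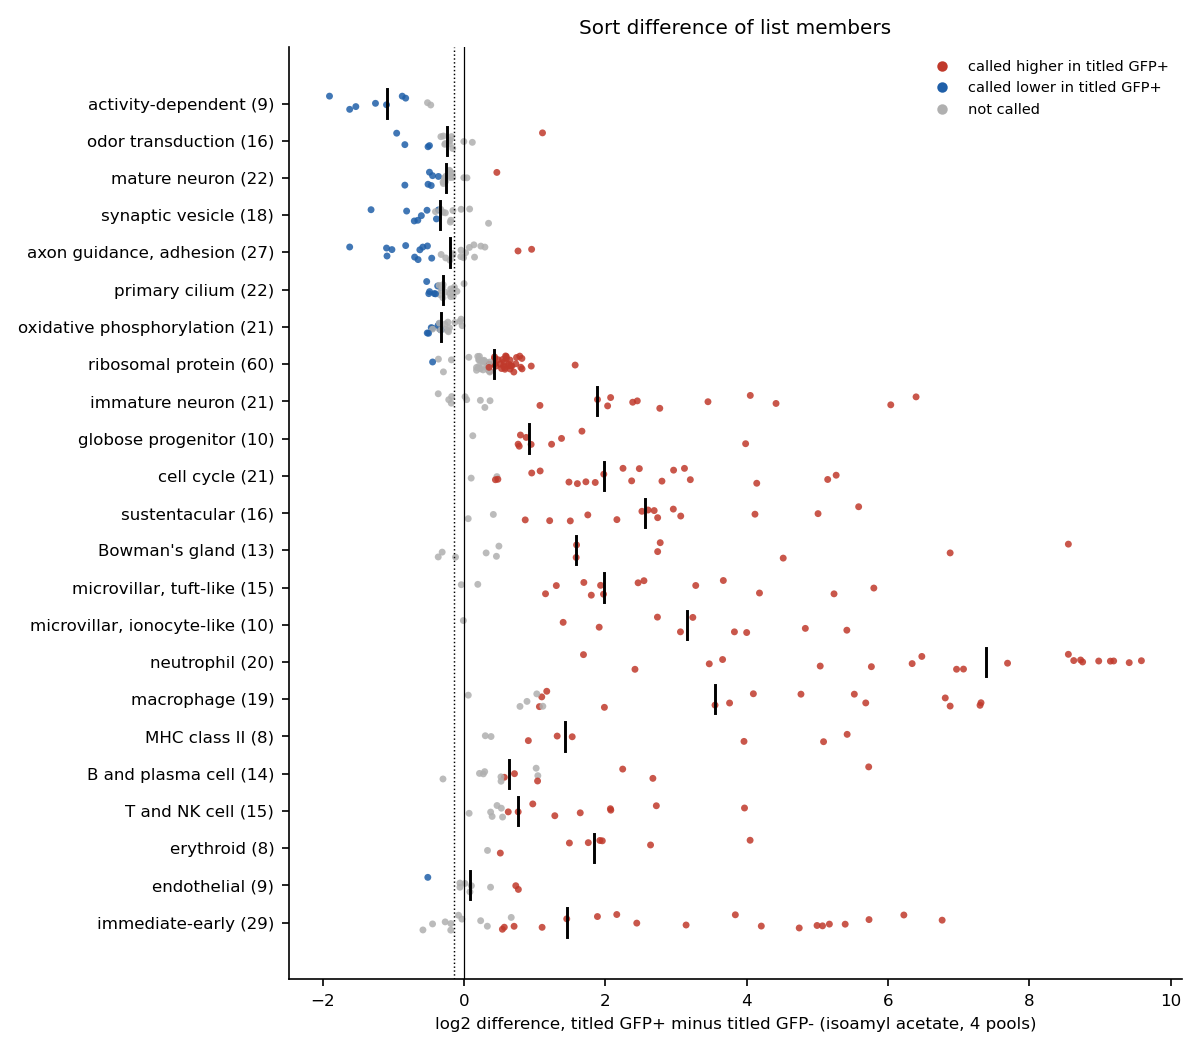
Sort difference (log2, titled GFP+ minus titled GFP-, 4 pools) of each measured member of 23 gene lists, with the number measured in brackets, a black bar at the median of a list and a dotted line at -0.14, the median of all probe sets. All 20 neutrophil genes lie to the right with a median of 7.38, and the activity-dependent genes lie to the left with a median of -1.10.

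Immediate-early genes, transcribed within minutes of a stimulus, rose in titled GFP+, opposite to S100a5. Of 29 measured, 19 rose and 0 fell (median 1.45), beside 11.9% and 14.2% of all probe sets. Egr1 gave 14.89, 14.40, 13.61 and 13.87 in titled GFP+ and 8.12, 7.62, 7.67 and 8.46 in titled GFP- (6.23, SE 0.25, adjusted p = 1.08e-07). Fos, chosen after its values were seen, gave 16.33, 15.91, 14.95 and 15.79 against 10.25, 10.82, 10.16 and 11.07 (5.17, SE 0.22, adjusted p = 1.83e-07). For both genes pool 3 was the lowest of titled GFP+, and the groups were several log2 units apart. Egr2 rose by 6.77, Zfp36, an RNA-binding protein that destabilises cytokine messages, by 5.73, and Btg2, an antiproliferative gene, by 5.39.

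The neuronal members Arc and Npas4, chosen after their values were seen, did not pass. Arc gave 0.24 (adjusted p = 0.205) and was above the negative controls in 1 of 8 libraries, and Npas4 was at or under the negative controls in every library of both sorts. White blood cells also express immediate-early genes. The neutrophil signals above were also higher in titled GFP+, and their part in these rises was not tested. Upstream letters are shown for Fos (chr12:85473640-85473889, plus strand), Btg2 (chr1:134079156-134079405, minus strand) and Zfp36 (chr7:28379229-28379478, minus strand), all of GRCm38.p6, because signal-dependent factors are known to act on such genes there.
Fos: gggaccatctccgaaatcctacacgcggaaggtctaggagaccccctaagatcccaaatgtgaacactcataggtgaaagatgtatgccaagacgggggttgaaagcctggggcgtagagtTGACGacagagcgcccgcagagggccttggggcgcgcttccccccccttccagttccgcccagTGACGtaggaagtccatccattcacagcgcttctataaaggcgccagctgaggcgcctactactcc
Btg2: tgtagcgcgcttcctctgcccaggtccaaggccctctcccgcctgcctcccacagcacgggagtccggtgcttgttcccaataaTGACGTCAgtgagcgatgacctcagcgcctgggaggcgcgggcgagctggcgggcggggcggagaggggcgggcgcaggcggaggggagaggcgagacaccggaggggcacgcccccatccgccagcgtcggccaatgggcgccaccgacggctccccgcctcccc
Zfp36: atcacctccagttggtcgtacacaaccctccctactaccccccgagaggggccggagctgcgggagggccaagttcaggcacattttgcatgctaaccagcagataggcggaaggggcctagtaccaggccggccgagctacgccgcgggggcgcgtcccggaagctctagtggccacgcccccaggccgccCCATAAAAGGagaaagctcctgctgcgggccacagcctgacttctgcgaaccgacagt
Fos held TGACG at 2 positions, Btg2 held the full TGACGTCA, and Zfp36 held a CArG box that began 58 bases before the start. TGACG stood before 12 of 17 immediate-early genes that rose (70.6%) and before 5 of 7 that did not (71.4%), beside 20.2% of all genes. TGACGTCA stood before 2 of the 17 and 1 of the 7, beside 1.81%, and the CArG box before 2 and 0, beside 1.62%. Among 7 activity-dependent genes TGACG stood before 2.

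Signalling, stress and metabolic groups gave smaller or mixed differences, beside 11.9% rises and 14.2% falls over all probe sets. Of 21 chemokine and receptor genes 16 rose and 2 fell: Ccl9 rose at least 44.5-fold and Ccr2, the monocyte receptor, at least 18.2-fold, whereas Cx3cl1, fractalkine, fell by 0.87 (adjusted p = 0.00427). Of 13 interferon-response genes 5 rose and 3 fell. Ifitm3, a membrane protein high in leukocytes, rose at least 42.4-fold, and Ifit1 (-0.92, adjusted p = 0.00347), Mx2 (-0.76, adjusted p = 0.00309) and Ifit2 (-0.42, adjusted p = 0.0258) fell, the last a call lost without pool 1, 3 or 4. Of 13 genes of cyclic GMP and necklace neurons 6 rose. The rises included Pde2a (3.50) and the Ms4a genes Ms4a4c (4.22) and Ms4a6c (at least 11.3-fold), which blood cells also express.

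Of 9 heat shock genes 4 rose, beside 11.9% of all probe sets, and without the pool block 1 did. Hspa1a, an inducible HSP70 gene, varied more between pools than between sorts: 15.17, 12.56, 13.09 and 9.58 in titled GFP+ and 12.63, 9.87, 11.001 and 8.03 in titled GFP-. Pool 1 was highest and pool 4 lowest in both sorts, yet titled GFP+ was the higher in each pool (2.22, SE 0.18, adjusted p = 1.26e-05). Hspa1b, its near copy, gave the same order of pools (2.29, SE 0.19). Of 15 unfolded protein response genes 1 fell, beside 14.2% of all probe sets. It was Dnajb9 (-0.42, adjusted p = 0.0185), a call lost without pool 1, 2 or 3.

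Of 21 oxidative phosphorylation genes 7 fell and 0 rose (median -0.33), beside 14.2% and 11.9% of all probe sets. The falls were small, led by Ndufa2, a complex I subunit (-0.52, adjusted p = 0.0124; not called without pool 1). Without pool 1, 2, 3 or 4 they numbered 1, 3, 4 and 1, and with centring on mature neuron markers or on negative controls they numbered 0. Under median centring all 21 fell, with an intensity trend 12 and with dim probe sets left out 11. Of 60 cytosolic ribosomal protein genes 35 rose and 1 fell (median 0.43), beside 11.9% and 14.2% of all probe sets. The rises were led by Rplp0 (1.57, adjusted p = 0.000168). Without pool 1 or pool 2 there were 14 and 13 rises, and under median centring 8 rose and 5 fell.

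The 12 falls outside the receptors with the largest fitted differences included 3 given as bounds, and the other 9 ranged from -3.61 to -1.56. Fxyd2, a regulator of the sodium pump, gave 8.07, 8.06, 7.57 and 7.48 in titled GFP+ and 11.48, 10.45, 11.46 and 12.23 in titled GFP-. The groups did not overlap (-3.61, SE 0.38, adjusted p = 7.44e-05). Caly, calcyon of endocytic vesicles, fell by 2.02 (adjusted p = 2.17e-05). Avp, the vasopressin gene, gave 6.07, 6.27, 7.33 and 7.17 against 8.73, 7.41, 9.36 and 9.38 (-2.01, SE 0.26, adjusted p = 0.000263). Pools 3 and 4 were higher for Avp in both sorts. Ptprn, a protein of dense-core vesicles, fell by 1.74 (adjusted p = 1.52e-05), Pcdh8, a protocadherin, by 1.59 (adjusted p = 3.27e-05) and Hs3st1, a heparan sulfate enzyme, by 1.56 (adjusted p = 2.42e-05). Rxfp1, the relaxin receptor, was at or under the negative controls in titled GFP+ and at least 2.96-fold higher in titled GFP-. Cntnap5b, a contactin-associated protein gene, and Nell2, a secreted glycoprotein gene, were likewise under the negative controls in titled GFP+, and were at least 1.76-fold and 1.999-fold higher in titled GFP-, in that order. Galnt15, Pcp4l1 and Pcdh10 completed the group.

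The pools mostly shared directions and differed in size of effect. Of the 262 receptors that rose, 256 were higher in titled GFP+ in all 4 pools, and of the 508 that fell, 489 were lower in all 4. The receptor median was -0.93 in pool 1, -0.83 in pool 2, -0.28 in pool 3 and -0.34 in pool 4. Receptors lower by over 1 numbered 531, 520, 371 and 377 in the same order. Over the 1091 receptors, the differences of 2 pools correlated with Pearson's r from 0.901 to 0.947, as a description over genes measured on shared arrays. The neutrophil median was 8.24, 8.30, 6.301 and 7.64, lowest in pool 3, and the tuft-like median was 2.97, 2.55, 1.67 and 1.28.

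Whether isoamyl acetate changed the sort difference was asked of the same contrast in the filtered-air mice, which share no library with it. There 10.9% of probe sets were higher in titled GFP+ and 10.2% were lower. Of the odor rises 2176 were also vehicle rises, 82.4% of the odor list and 89.9% of the vehicle list, and 1355 falls were shared, 43.1% and 60.1%. The difference between the exposures itself was called for 0 probe sets (0%) by limma, and 1092 passed at an unadjusted p below 0.05 (4.92%). Other settings called up to 2 probe sets. Of the 1091 receptors, 94 passed at the unadjusted threshold (8.62%) and 0 were called. S100a5 fell by 1.18 in vehicle, and its interaction was -0.07 (adjusted p = 0.981). Among receptors 241 of the 262 rises and 446 of the 508 falls were called the same way in vehicle, and the odor and vehicle differences had a Pearson's r of 0.983 over 1091 receptors, as a description.

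Olfr170 and Olfr213, chosen after their values were seen, went opposite ways in the exposures. Olfr170 gave 9.69, 9.86, 9.97 and 10.12 in odor titled GFP+ and 12.55, 12.16, 12.30 and 12.08 in odor titled GFP-. In vehicle it gave 11.68, 11.20, 10.87 and 10.67 in titled GFP+ and 10.07, 9.65, 10.82 and 10.10 in titled GFP-. The odor libraries did not overlap (-2.36, SE 0.25, adjusted p = 7.64e-05), while in vehicle the sign was turned in every pool (0.94), by only 0.05 in pool 3. The interaction was -3.30 (SE 0.35), with an adjusted p of 0.0758 that misses the threshold. It passed without the pool block (adjusted p = 0.000416), with an intensity trend (0.00502), with median or negative control centring (0.0451 and 0.0497) and without vehicle pool 3 (0.0232), and over all 16 alternatives it ran from 0.000416 to 0.408, the highest without odor pool 2. Olfr213 gave -1.51 in odor and 1.09 in vehicle, with an interaction of -2.61 (SE 0.37, adjusted p = 0.229) that passed with an intensity trend (0.0377).

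**Figure D5:**
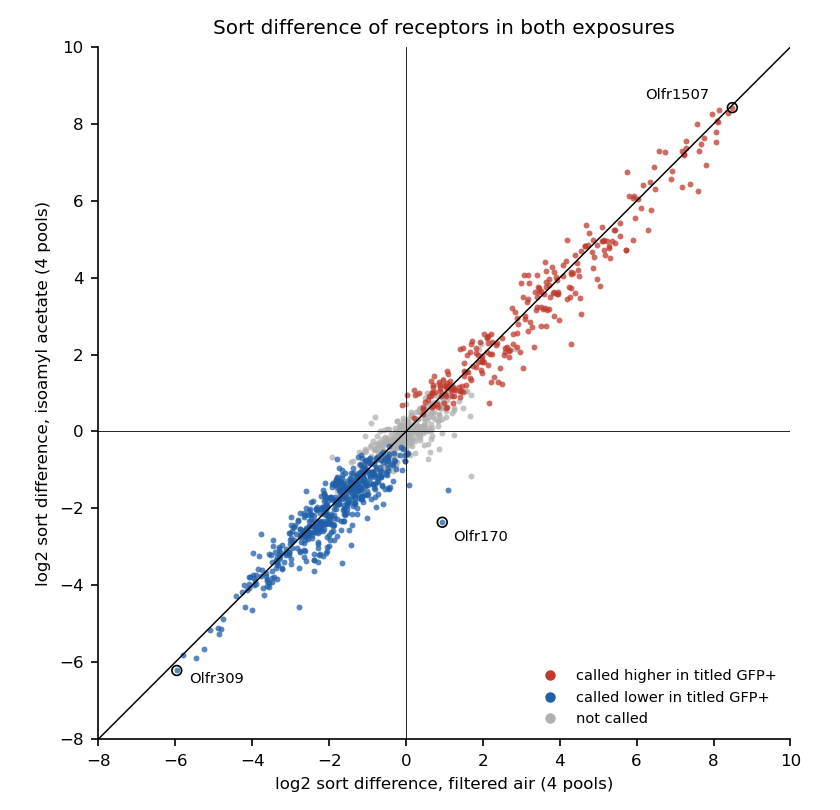
Sort difference (log2, titled GFP+ minus titled GFP-) of 1091 odorant receptors in filtered-air mice (x axis, 4 pools) and in isoamyl acetate mice (y axis, 4 pools), coloured by the call in isoamyl acetate mice, with the line of equal difference. Most receptors lie near the line from Olfr309 to Olfr1507, and Olfr170 stands apart at 0.94 in filtered air and -2.36 in isoamyl acetate.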

How the data were processed

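RNA of 16 sorted libraries, from 8 pools of 3 mice, was measured on Clariom S mouse arrays. The authors deposited 1 log2 signal per probe set and library, and the submitters' processing notes name Affymetrix Expression Console. No version, background correction or normalization is given in the sources used here, and arrays carry no read depth, so the 4 pools a group limit the precision. Of 28846 probe sets, 6640 controls were left out and 22206 were tested, of which 19572 have 1 gene symbol in the platform annotation.

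The deposited values were fitted without further scaling with limma 3.58.1 in R 4.3.3 on all 16 libraries, with exposure by sort groups and the pool as a block, which left 6 residual degrees of freedom. P-values were adjusted by Benjamini-Hochberg, with a threshold of 0.05. The titles say that each library came from 3 mice, and numbers shared by the sorts of an exposure were taken as 1 pool because the 24 mice give 8 pools of 3 for 16 libraries. Deviations of same-pool libraries from their group means correlated at 0.16 to 0.40 in odor and 0.17 to 0.30 in vehicle. Groups follow the sample titles. The procedure was tested on simulated data.

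A gene counts as above background where its signal exceeds the median negative control of that array. For a gene not above it in any library of a sort, the fold is given as "at least", against that median.

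Named are S100a5, up to 4 called genes per list and direction by size, the 12 largest rises and falls, 15 receptors each way without overlap and all classic receptors. Genes chosen after their values were seen are marked so. Members and lists were chosen with earlier results of these data known. Motifs were searched in 250 bases before RefSeq starts (GRCm38.p6). Alternatives were other scalings, a filter on dim probe sets, an intensity trend, fits without the block or on odor libraries alone, and leaving out each pool.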

Additional observations from a re-analysis of the deposited data

Results flagged for a closer look

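Olfr170 and Olfr213 were lower in titled GFP+ in every odor pool and higher in every vehicle pool. The interaction was -3.30 for Olfr170 and -2.61 for Olfr213, and limma's adjusted p of 0.0758 and 0.229 missed the threshold.

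In 21 of 340 groups of 4 libraries, 1 library stood apart from the other 3 by Dixon's criterion, and chance gives about 1 in 20. In titled GFP+, these were pool 1 for Olfr393 (13.54), pool 2 for Lrrc3b (14.30), Kirrel2 (15.997), Ndufa2 (11.08) and Olfr481 (3.09), pool 3 for Fn1 (10.26) and Ccl9 (9.73), and pool 4 for Bbs5 (9.16), Mx2 (5.72) and Gap43 (9.58). In titled GFP-, they were pool 1 for Olfr390 (6.13) and Olfr77 (5.72), pool 2 for Apoe (12.04), Ifit2 (10.54), Olfr124 (12.53), Olfr629 (4.80) and Ly6c1 (3.94), and pool 3 for Pcp4l1 (15.13), Alox5 (2.88), Foxi1 (6.83) and Egr2 (6.20).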

How the results depend on the processing

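The S100a5 sort difference in odor kept its direction and stayed past the threshold in all 12 alternatives, from -1.62 with median centring to -0.998 with mature neuron marker centring, and from -1.33 to -1.21 without 1 odor replicate. Odorant receptor counts stayed within 1.5 times throughout, with 226 to 306 higher and 436 to 632 lower. Over all probe sets, mature neuron marker centring gave 3971 higher and 879 lower, median centring 14643 lower, negative control centring 1301 lower and the odor libraries alone 1928 lower. Leaving out 1 odor replicate gave 2108 to 2487 higher and 1719 to 2584 lower. Without the replicate block there were 2449 higher and 2189 lower. The interaction count of 0 became 1 without the replicate block, with median centring and with negative control centring, 2 with an intensity trend, and 0 to 1 when 1 replicate was left out. Of 158 called genes named in the text besides S100a5, 132 kept their call in every alternative and 26 lost it in at least 1, and 0 of 169 changed sign with a call. Kirrel2, Ifit1, Hspa1a, Hspa1b, Cx3cl1 and Olfr545 lost it only without the replicate block. The cause of these changes was not tested. Differences near the array scaling and signals near the negative controls are the least certain.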
